A study of Xenopus laevis with 8 samples.

Results

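Ankyrins, spectrins and their partners form the submembrane skeleton of neurons and build the axon initial segment, where action potentials start. The genes described here are the ankyrins ank1 and ank3, the alpha spectrin sptan1, the beta spectrins sptbn1 and sptbn4, the actin-spectrin linker epb41, and the adhesion genes nfasc and nrcam. They were taken by gene symbol, without the L or S ending that marks the homeologues of the allotetraploid Xenopus laevis, from a list of 9 symbols that also held ank2. The search found 15 rows under 8 of these symbols among 41881 genes, and all 15 had enough counts to be tested. No row carried the symbol ank2, and nfasc was found as an S copy only, so ank2 and nfasc.L were not analysed here. The family was selected on its differences between CRISPant and control brains as well as its symbols, since results of that comparison were in view, so the differences between these groups are given below as a description with no p-value. "Rose" and "fell" mean an adjusted p under 0.05 in the fit across all genes.

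Whole brains of stage NF47 tadpoles were compared between neurod2 CRISPants and sibling controls, in pools of 4 brains and with 4 pools per group. The CRISPants are mosaic F0 animals from eggs injected with Cas9 and an sgRNA against both homeologues of neurod2, a proneural transcription factor, so each pool mixes edited and unedited cells. The controls are labelled wild type and received Cas9 with no sgRNA. All animals came from a single sibship and were raised in the same dilute saline, so the spread between pools is that of pooled siblings. In whole-brain RNA, fewer cells of a type and less RNA per cell cannot be told apart.

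In mammals, ankyrins are adaptors that tie membrane proteins to a lattice of spectrin and actin. Ankyrin-G, the product of ank3, organises the axon initial segment and nodes of Ranvier. There it recruits beta-IV spectrin (sptbn4), voltage-gated sodium channels and the adhesion molecules neurofascin and NrCAM. Alpha-II spectrin (sptan1) pairs with each beta spectrin, and beta-II spectrin (sptbn1) forms the periodic lattice along the rest of the axon. Ankyrin-R (ank1) and the product of epb41 were first known from the red blood cell membrane, and both are also made by neurons.

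Total counts ranged from 18945762 to 25937707 per pool, and the 15 genes had between 755 and 17705 counts in each pool. Values are CPM (counts scaled to a common library size after TMM normalisation), with the SD over 4 pools. CPM are not corrected for transcript length, so levels are not compared between genes. The targeted gene was at 36.4 ± 2.42 CPM in control and 26.2 ± 5.22 CPM in CRISPant pools for neurod2.L, which fell, and at 46.5 ± 4.996 and 36.6 ± 7.95 CPM for neurod2.S, whose groups overlapped. In every group, each pair of pools differed by more than sampling noise, and no pools were merged.

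Both homeologues of ank1 and ank3 fell in CRISPant brains, as did both of nrcam and sptbn4.S, while sptbn1.S rose. The alpha spectrin sptan1 lay within 0.04 of 0 on the log2 scale in both copies. In all, 7 of the 15 genes fell, where 20.8% of all genes tested fell, and 1 rose, where 21.7% of all genes rose. Another 7 did not pass the threshold, so 8 were called in either direction, beside 42.4% of all genes. Among the 5361 genes with a mean level at or above that of sptbn4.S, the lowest gene of the family, 28.5% fell and 25.0% rose, or 53.6% together. CRISPant pools lay wholly below control pools for 6 of the 15 genes and wholly above them for 2, against 18.5% and 19.4% of all genes. Across the 15 genes the median log2 fold change was -0.14, and over all genes tested it was -0.00. Since the genes were chosen with this comparison known, nothing is read from these counts.

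**Figure D1:**
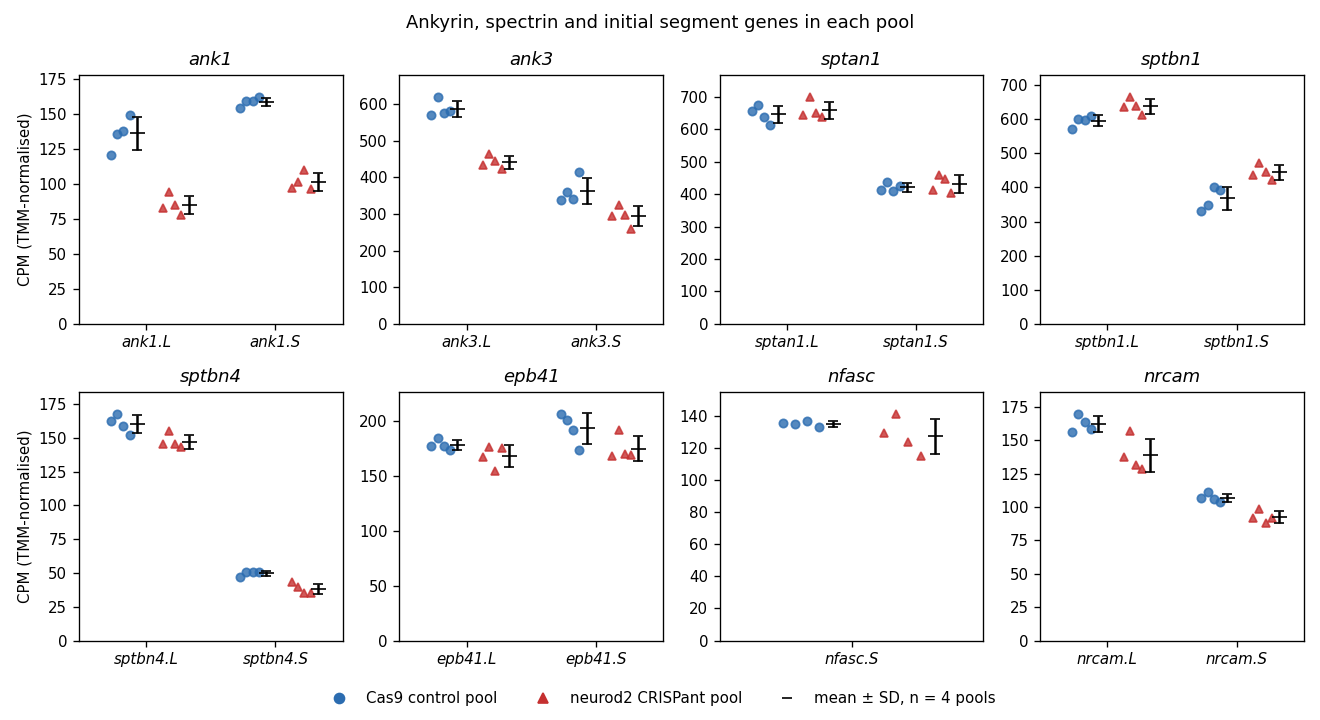
CPM of each gene in each pool, with 4 control pools (blue circles) and 4 CRISPant pools (red triangles) and the mean ± SD of each group in black. Each panel has its own axis, starting at 0. The groups are apart for ank1, ank3, sptbn1, sptbn4.S and nrcam.S, and overlap for sptan1, sptbn4.L, epb41, nfasc.S and nrcam.L.

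**Figure D2:**
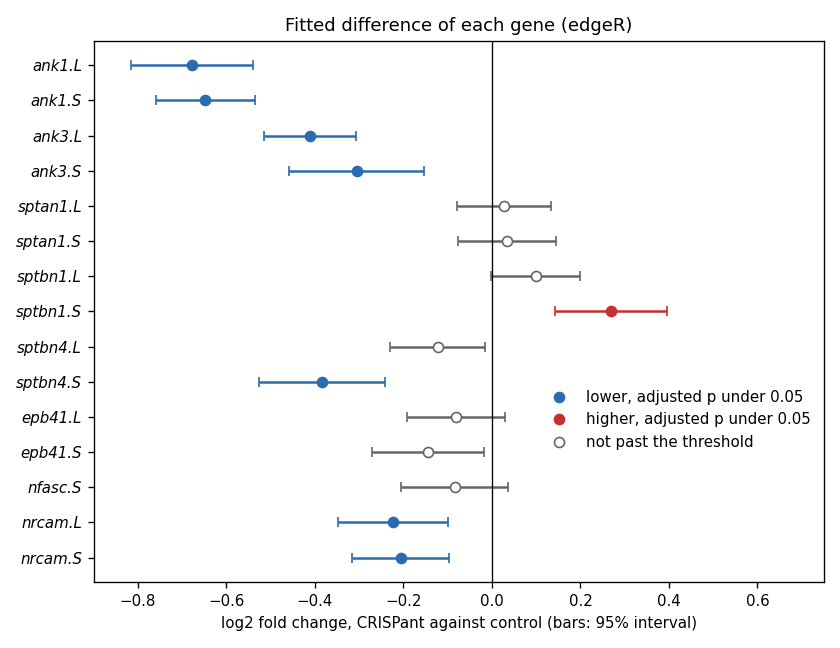
Fitted log2 fold change of each gene in CRISPant against control brains, with its 95% interval. Filled points passed an adjusted p under 0.05 over all genes tested. The ank1 homeologues lie farthest below 0, at -0.68 and -0.65, and sptbn1.S lies farthest above it, at 0.27.

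ank1.L (v10.1 assembly, chromosome 3L, positions 139543765 to 139731271) was at 121, 136, 138 and 149 CPM in control pools 1, 2, 4 and 5. In CRISPant pools 3, 4, 7 and 9 it was at 83.0, 93.9, 84.7 and 78.0 CPM. The highest CRISPant pool was thus well below the lowest control pool. In the fit this was a fall of 37.5%, or -0.68 on the log2 scale (standard error 0.07, 95% interval -0.82 to -0.54). ank1.S (chromosome 3S, positions 22497428 to 22644018) was at 154, 159, 159 and 162 CPM in the control pools, a spread of only 1.99% of the mean. It was at 96.7, 101, 110.1 and 95.9 CPM in the CRISPant pools, with no overlap. Its log2 fold change of -0.65 (standard error 0.05) was close to that of ank1.L.

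ank1 is also a gene of red blood cells, which dissected brains carry in varying amount. Of 21 red blood cell markers tested, 2 rose, 2 fell and 17 did not pass, where 21.7% of all genes rose and 20.8% fell. Their summed level ranged from 1042 to 1551 CPM in control pools and from 795 to 2051 CPM in CRISPant pools, and of the markers found hbg1 was at 0 in at least 1 pool. Globin genes varied widely among CRISPant pools, with hba3.L at 445 ± 99.6 CPM in control and 486 ± 211 CPM in CRISPant brains, and hbd.S at 350.2 ± 64.7 and 335 ± 154 CPM. The globin gene hbg2.L rose from 6.64 ± 4.82 to 37.8 ± 24.8 CPM (log2 difference 2.52, edgeR adjusted p = 0.0444), with overlap between the groups, while hba2.L (0.70) and hbe1.L (0.48) did not pass. gata1.S rose as well, with 0.81. Both markers that fell were copies of tal1 (-0.46 and -0.45). Their CRISPant pools varied by 7.24% and 6.89% of the mean, against 43.5% for hba3.L. rhag.L (-0.59) and epor.L (-0.45) were lower without passing. The red cell spectrin sptb.L stood at 7.82 CPM in control and 9.60 CPM in CRISPant brains, a difference of 0.30 on the log2 scale (edgeR adjusted p = 0.514). The pool with the least summed red cell RNA, CRISPant pool 4, had the highest ank1.L of its group, and the pool with the most, CRISPant pool 7, had the highest ank1.S. CRISPant pool 9, at 1728 CPM of red cell RNA, had the lowest ank1.L and ank1.S. CRISPant pool 4 was the highest of its group for 13 of the 15 genes. Control pools 2 and 4, with the least and the most among controls, were at 136 and 138 CPM for ank1.L and both at 159 CPM for ank1.S. The part of blood in the ank1 values was not tested.

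ank3.L, the gene of the initial segment organiser ankyrin-G, was at 569.5, 618, 577 and 582 CPM in the control pools. It was at 433, 464, 443 and 423 CPM in the CRISPant pools, again with a gap between the groups. This was a fall of 24.8%, or -0.41 on the log2 scale (standard error 0.05, 95% interval -0.52 to -0.31). ank3.S was at 339, 360.0, 341 and 414 CPM in control pools and at 295, 325, 298 and 258 CPM in CRISPant pools. Control pool 5 was the high value of its group, and CRISPant pool 4 came within the smallest distance of the controls. Its log2 fold change was -0.31 (standard error 0.07), and it ran from -0.36 to -0.24 as each pool was left out, with the call kept each time. The weakest of these values came without control pool 5. RefSeq gave no entry under the symbols ank3.L or ank3.S, so no position is given for them.

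The alpha spectrin gene sptan1.L (chromosome 8L, positions 10311948 to 10341147) was at 657, 676, 638 and 613 CPM in control pools and at 646, 699, 651 and 638 CPM in CRISPant pools. The groups overlapped, and the log2 fold change was 0.03 with a 95% interval of -0.08 to 0.13. sptan1.S (chromosome 8S, positions 32791598 to 32826491) was at 421 ± 13.9 CPM in control and 431 ± 27.04 CPM in CRISPant brains, with a log2 fold change of 0.03 and an interval of -0.08 to 0.14.

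The beta spectrins went in opposite directions. sptbn1.S, a copy of beta-II spectrin of the axonal lattice (chromosome 5S, positions 25063933 to 25185563), was at 330.4, 349.6, 400.6 and 393 CPM in control pools. It was at 438, 472, 446 and 421 CPM in CRISPant pools, all above the controls. Control pools 1 and 2 were lower than control pools 4 and 5. The fitted rise was 20.6%, or 0.27 on the log2 scale (standard error 0.06, 95% interval 0.14 to 0.40), and it ran from 0.22 to 0.31 as each pool was left out. sptbn1.L (chromosome 5L, positions 3056545 to 3196761) was at 573, 602, 597 and 611 CPM in control pools and at 635, 664, 639 and 614 CPM in CRISPant pools. These groups were apart by less than 3 CPM, and the log2 fold change of 0.10 (95% interval -0.00 to 0.20) did not pass the threshold.

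sptbn4.S, a copy of beta-IV spectrin of the initial segment, was at 47.3, 50.4, 50.8 and 50.7 CPM in control pools. In CRISPant pools it was at 43.1, 39.4, 35.2 and 34.9 CPM, with no overlap. The fitted fall was 23.4%, or -0.38 on the log2 scale (standard error 0.07, 95% interval -0.53 to -0.24). sptbn4.L was at 162, 167, 159 and 152 CPM in control pools and at 145, 155, 146 and 143 CPM in CRISPant pools, where only CRISPant pool 4 reached into the control range. Its log2 fold change was -0.12 (95% interval -0.23 to -0.02), which did not pass the threshold after adjustment. It did pass with DESeq2, with library totals in place of TMM, and without control pool 5 or CRISPant pool 4 (log2 fold changes from -0.15 to -0.12).

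With the counts of homeologues summed, sptbn1 rose by 0.17 on the log2 scale (standard error 0.05) and sptbn4 fell, at -0.18 (standard error 0.05). ank1 fell with -0.66, ank3 with -0.37 and nrcam with -0.22. sptan1 (0.03), epb41 (-0.11) and nfasc (-0.09) did not pass.

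epb41, which links spectrin to actin, was lower on average in both copies without passing. epb41.L (chromosome 2L, positions 86541136 to 86660218) was at 178 ± 4.62 CPM in control and 168 ± 10.2 CPM in CRISPant brains, a log2 fold change of -0.08. epb41.S was at 206, 201, 191 and 174 CPM in control pools and at 168, 192, 169.7 and 169 CPM in CRISPant pools. Control pool 5 lay with the CRISPant pools and CRISPant pool 4 with the control pools. Its fitted log2 difference was -0.14 (95% interval -0.27 to -0.02), and epb41.S passed without either of these pools (-0.19 in both cases) and with library totals in place of TMM (-0.15).

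The adhesion genes of the initial segment and nodes differed from each other in whether they passed. nrcam.L (chromosome 3L, positions 72022352 to 72152874) was at 156, 169.5, 164 and 159 CPM in control pools and at 138, 157, 132 and 129 CPM in CRISPant pools. CRISPant pool 4 lay just above the lowest control pool, and the other CRISPant pools lay below all controls. Its log2 fold change was -0.22 (standard error 0.06). nrcam.S (chromosome 3S, positions 82828956 to 82961614) was at 106, 111, 106 and 104 CPM in control pools and at 91.8, 98.6, 88.4 and 91.4 CPM in CRISPant pools, with no overlap and a log2 fold change of -0.21 (standard error 0.05). nfasc.S (chromosome 2S, positions 56232676 to 56389700) was the steadiest of the 15 genes among controls, at 136, 135, 137 and 133 CPM. It spread over 129, 141, 124 and 115 CPM in CRISPant pools, on both sides of the control range. Its fitted log2 difference of -0.09 (95% interval -0.21 to 0.04) did not pass. The difference between nrcam and nfasc.S was not tested. Neurofascin is made by glia as well as neurons in mammals, and gene counts do not separate its isoforms.

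The balance of L and S counts moved little for ank1, sptan1, nrcam and epb41. The L copy gave 46.1% ± 1.67 of ank1 counts in control and 45.6% ± 1.95 in CRISPant brains (SD, n = 4 pools each). For sptan1 the L share was 60.5% ± 1.06 and 60.5% ± 0.909, for nrcam 60.3% ± 0.523 and 59.9% ± 1.19, and for epb41 48.0% ± 1.48 and 49.1% ± 1.60. The L share of ank3 was 62.7%, 63.2%, 62.9% and 58.4% in control pools and 59.5%, 58.8%, 59.8% and 62.1% in CRISPant pools. Control pool 5 and CRISPant pool 9 lay apart from the rest of their groups, and the ranges overlapped. Overlap of L shares was not counted over all L and S pairs, so nothing is read from the number of pairs without it. Among the 7 pairs here, only the L share of sptbn1 did not overlap between the groups. It was 63.4%, 63.2%, 59.8% and 60.8% in control pools and 59.2%, 58.5%, 58.9% and 59.3% in CRISPant pools. For sptbn4 it was 76.3% ± 1.11 in control and 79.4% ± 1.58 in CRISPant brains, and the groups overlapped through CRISPant pool 3 at 77.1%. In the control pools alone, L minus S on the log2 CPM scale ran from -0.22 ± 0.10 for ank1 to 1.67 ± 0.09 for sptbn4 (SD, n = 4 pools). These shares are of counts with no correction for the length of each copy. Reads that match both copies may have been assigned in ways the sources used here do not give.

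Ratios within a pool do not depend on the scaling between pools. They reuse the counts of genes chosen with this comparison known. Since sptan1 hardly moved, ratios against it largely repeat the difference of the other gene. For single genes, 37.8% of all those tested had groups that did not overlap, and no such share was taken over pairs of genes. Nothing is therefore read from the number of ratios that separate the groups. For every 100 counts of sptan1 there were 25.7, 26.4, 28.4 and 29.9 counts of ank1 in control pools and 17.0, 16.9, 17.7 and 16.7 in CRISPant pools. The CRISPant pools agreed within 1 count, and all lay below the controls. For ank3 against sptan1 the ratio was 85.0, 87.7, 87.6 and 95.9 counts per 100 in control pools and 68.7, 68.2, 67.5 and 65.5 in CRISPant pools. The ratio of the ankyrins was lower too, with 31.0 ± 1.04 counts of ank1 per 100 of ank3 in control and 25.3 ± 0.735 in CRISPant brains and no overlap.

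The ratio of the beta spectrins also separated the groups. There were 23.2, 22.9, 21.02 and 20.2 counts of sptbn4 per 100 of sptbn1 in control pools and 17.5, 17.1, 16.7 and 17.2 in CRISPant pools, a difference of -0.35 on the log2 scale. sptbn1 against sptan1 was at 84.5, 85.3, 95.3 and 96.7 counts per 100 in control pools and at 101, 98.1, 98.6 and 99.4 in CRISPant pools, so control pools 4 and 5 lay near the CRISPant pools and control pools 1 and 2 well below. ank3 against sptbn4, which meet at the initial segment, was at 453 ± 26.8 counts per 100 in control and 397 ± 13.6 in CRISPant brains, without overlap. nrcam against sptan1 was at 25.2 ± 0.473 and 21.2 ± 0.884, without overlap, and nfasc against sptan1 at 12.7 ± 0.420 and 11.7 ± 0.596, with overlap.

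**Figure D3:**
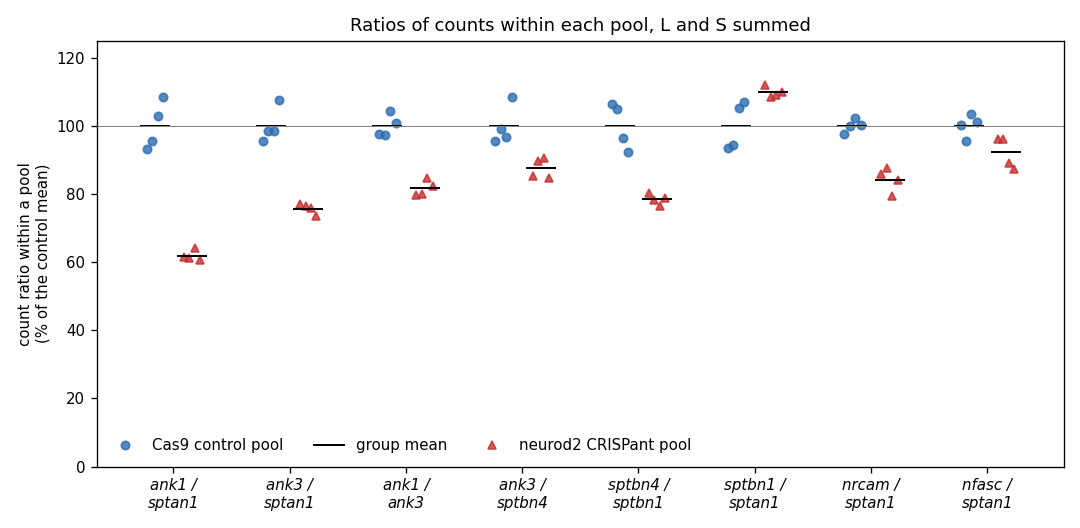
Ratio of the counts of each pair of genes within each pool, with L and S summed, as a percentage of the control mean (control pools in blue, CRISPant pools in red, black bars for group means). Of the 8 ratios, sptbn1 to sptan1 is higher in every CRISPant pool than in any control pool, nfasc to sptan1 overlaps, and the others are lower in every CRISPant pool. The genes were chosen with this comparison known.

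The CRISPant pools kept a common order across many of these genes, and the control pools less so. CRISPant pool 4 was the highest of its group for 13 of the 15 genes and CRISPant pool 9 the lowest for 12. The same order was not counted over all genes, so nothing is read from these counts. Among controls, pool 1 was the lowest for 8 genes and pool 2 the highest for 7, while pool 5 was the highest for 4 and the lowest for 6. The summed level of 31 neuronal marker genes was also highest in CRISPant pool 4, at 7795 CPM against 6887 to 7093 CPM in the other CRISPant pools and 6850.4 to 7511.5 CPM in controls. CRISPant pool 4 had the lowest summed level of neural progenitor markers of its group, at 3750.4 CPM against 4012 to 4401 CPM. The part of cell composition in these pool differences was not tested. Without CRISPant pool 4, 9 of the 15 genes fell and 1 rose, with epb41.S and sptbn4.L added to the genes that fell. Of all 25405 genes tested in that setting, 5104 fell and 5396 rose. Leaving out control pool 5 instead gave the same counts for the 15 genes and added the same 2, so this was not particular to CRISPant pool 4. There, 4750 of all 25363 genes tested fell and 4918 rose.

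Other genes of the membrane skeleton and the initial segment were counted from 4 lists that exclude the genes above, with 140 genes tested. Of these, 38 fell, 15 rose and 87 did not pass, where 20.8% of all genes fell and 21.7% rose. slc4a1.L, slc4a1.S and sptb.L, which are also among the red blood cell markers above, were counted here too and did not pass. Among genes at or above the mean level of sptbn4.S, 28.5% fell and 25.0% rose. Both sets of shares also stand beside the count of each list below. The lists were chosen with earlier results of these data known, and up to 3 genes per direction are named from each by smallest p. The list counts and the p-values of these genes are therefore a description. The list of the L1 family and contactins holds adhesion genes of axons, nodes and their borders, and includes the contactin-associated cntnap genes and gldn. In it, 8 of 15 genes fell and none rose (median log2 fold change -0.19). Those that fell were copies of cntn4, cntn5, cntnap1, cntnap2, cntnap4, cntnap5 and gldn, and l1cam.S was the only L1 family gene tested. cntnap4.S, at 61.4 ± 3.67 CPM in control and 39.5 ± 3.27 CPM in CRISPant brains, fell with -0.64 on the log2 scale (edgeR adjusted p = 2.1e-07). cntn4.S fell with -0.37 and cntnap2.L, whose product clusters potassium channels beside the node in mammals, with -0.32. Of the other copies of these genes, cntn4.L fell with -0.26, while cntnap4.L (-0.14) and cntnap2.S (0.09) did not pass. The L1 relative l1cam.S, which like nrcam binds ankyrin in mammals, was at 656 CPM in control and 676 CPM in CRISPant brains, a log2 difference of 0.04 that was short of the threshold (edgeR adjusted p = 0.538). It was named after its values were seen.

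Among initial segment and node channels and related transporters, 14 of 48 genes fell and 2 rose (median -0.10 on the log2 scale). The anion exchanger slc4a2.S rose with 0.83, with a wide spread in CRISPant pools (17.9 ± 3.60 CPM), and the sodium-calcium exchanger slc8a1.L with 0.27. The other copy, slc8a1.S (0.06), did not pass. The main sodium channel of mature initial segments, scn8a, was also looked up after its values were seen. scn8a.L fell with -0.36 (edgeR adjusted p = 2.69e-04), while scn8a.S, at -0.15, was short of the threshold (edgeR adjusted p = 0.0711).

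In the wider membrane skeleton, 21 of 26 genes did not pass, 3 fell and 2 rose, and the median was 0.00 on the log2 scale. tmod3.S, which caps actin filaments, rose with 0.65 (12.8 ± 0.247 to 20.02 ± 1.50 CPM, edgeR adjusted p = 2.45e-06) and epb41l2.L, a relative of epb41, with 0.36. The adducin gene add3.L fell with -0.25, mpp1.L with -0.18 and tmod1.L with -0.61 from a low level (2.24 to 1.49 CPM). The other copies tmod3.L (0.19) and add3.S (0.03) did not pass.

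The scaffold, matrix and ankyrin-modifying genes went both ways, with 13 of 51 lower and 11 higher (median 0.02 on the log2 scale). The matrix gene tnr.L, for tenascin-R around nodes, fell with -0.54 (146 ± 3.16 to 101 ± 6.25 CPM, edgeR adjusted p = 1.21e-07), and the membrane scaffold gene dlg2 with -0.65 for the S copy and -0.61 for the L copy. The perineuronal matrix gene bcan.S rose with 0.87 (17.1 ± 2.39 to 31.1 ± 1.32 CPM, edgeR adjusted p = 1.2e-07). mapre1.L, a microtubule end-binding gene, rose with 0.54. Of the other copies, tnr.S fell with -0.15 and bcan.L rose with 0.44, while mapre1.S (0.13) did not pass. csnk2b.L, the regulatory subunit of the kinase CK2 that in mammals strengthens binding of ankyrin-G to sodium channels, rose with 0.51 (edgeR adjusted p = 5.92e-07). csnk2b.S rose with 0.26. The catalytic subunit genes did not pass in either copy, with csnk2a1 at -0.03 (L) and -0.02 (S) and csnk2a2 at 0.05 (L) and -0.05 (S).

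**Figure D4:**
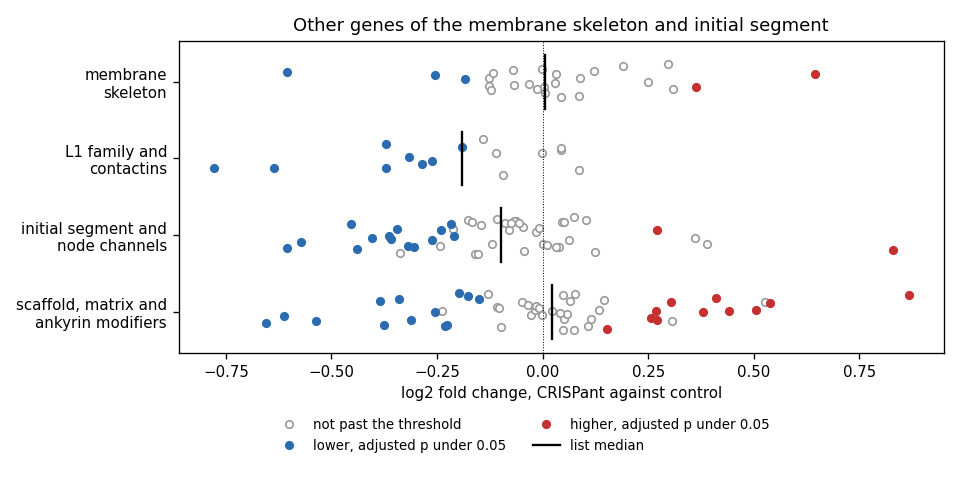
Log2 fold change of each of the 140 other genes in 4 lists, with filled points for genes past an adjusted p under 0.05 (blue lower, red higher) and a black bar for each list median. Points are spread vertically only for visibility. No gene in the list of the L1 family and contactins, which includes cntnap genes and gldn, is higher. The scaffold, matrix and modifier list has 13 lower and 11 higher genes.

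Neuronal markers went both ways in the same pools. Among 31 neuronal marker genes, 15 did not pass, 10 fell and 6 rose, and the list median was -0.04 on the log2 scale. Of all genes tested, 20.8% fell and 21.7% rose. Among the 5361 genes at or above the mean level of sptbn4.S, 28.5% fell and 25.0% rose. These shares also stand beside the counts of the other cell types below. Their summed level was 6850.4 to 7511.5 CPM in control and 6887 to 7795 CPM in CRISPant pools. tubb3.L, a tubulin of young neurons, rose with 0.33 (edgeR adjusted p = 1.87e-05), while tubb3.S (0.08) did not pass. The synaptic vesicle gene syn1.L, at -0.07, was short of the threshold, and syn2.L rose with 0.34 (37.1 to 47.0 CPM). The other copies syn1.S (0.14) and syn2.S (-0.09, 285 to 269 CPM) did not pass. Both copies of uchl1 (0.24 and 0.76) and of gap43 (0.17 and 0.30) also rose. Among the genes that fell were stx1a.L, a gene of vesicle release, with -0.36 (49.7 ± 2.20 to 38.7 ± 3.05 CPM, edgeR adjusted p = 1.56e-04) and rbfox3.L, a marker of mature neurons, with -0.29 (edgeR adjusted p = 0.0135). The others that fell were stx1a.S, rbfox3.S, nefl.L, snap25.L and both copies of syt1 and vamp2. Markers of neurons, progenitors, glia and blood beyond the highest pair of each list were named after their values were seen. Of 26 neural progenitor markers, 15 rose and none fell, and their summed level did not overlap, at 2824 to 3264 CPM in control and 3750.4 to 4401 CPM in CRISPant pools. The genes with the highest mean over all pools, the radial glial genes fabp7.L and vim.L, rose with 0.43 and 0.53. msi1.L, which stood above vim.L in control brains, was at 267 ± 16.9 CPM there and 269.99 ± 12.9 CPM in CRISPant brains and did not pass. Of 20 markers of myelinating glia, whose cells face the nodes, 6 fell and 4 rose, with summed levels of 394 to 454 CPM in control and 404 to 423 CPM in CRISPant pools, and mal was at 0 in at least 1 pool. The genes with the highest mean over all pools, pmp22.L (-0.10) and pmp22.S (0.07), did not pass. The genes that fell were mbp.S, a myelin gene, with -0.28 (48.4 ± 3.02 to 39.8 ± 1.88 CPM), the low myelin gene mpz.S with -1.45, both copies of myrf (-0.50 and -0.73) and both of sox10 (-0.35 each). Among the 4 that rose were mag.L with 0.51 and cnp.L with 0.21. Skeletal muscle markers, which could accompany ank1, summed to no more than 19.1 CPM in any pool. Of 13 tested, 3 rose and 1 fell, among them myh6.L with 0.47 and tnni2.S with -0.60. Of 5 epithelial markers 1 rose, krt19.S with 0.24, while krt19.L had 0.02, and their summed levels ran from 91.2 to 109 CPM in control and from 109 to 113 CPM in CRISPant pools. The part of cell composition in the values of the ankyrins and spectrins was not tested.

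Over the 8 pools, the genes whose centred log2 CPM lay closest to those of sptan1.L, the gene of the family with the highest CPM in controls, were tpi1.L, dmxl2.S and mvb12b.S. Their root mean square distances were 0.02, 0.02 and 0.03 on the log2 scale, and none of them passed the test between groups. This is a description of 3 genes picked among all those tested.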

How the data were processed

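RNA-seq of 8 pools of tadpole brains was analysed, 4 per group. Per the labels and the methods, the authors used a stranded mRNA kit, aligned 100 bp single reads to XENLA_10.1 in DRAGEN and deposited raw counts per gene made by FeatureCounts, whose strand and multi-mapping settings are not given in the sources used here. Columns were matched to samples by library name. Genes were filtered with filterByExpr (minimum count 10), which kept 25171, normalised by TMM and tested in edgeR 4.0.16 (R 4.3.3) by its robust quasi-likelihood method with 1 term, condition, and p-values were adjusted by Benjamini-Hochberg over all genes tested. Each standard error is the absolute log2 fold change divided by the root of F. The script was tested on simulated data.

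The genes and lists were chosen with earlier results of these data known. Named genes are all rows of the family, up to 3 genes per direction with the smallest p of each list, the 2 markers of each cell type with the highest mean over all pools, and 3 genes nearest to sptan1.L. Other copies of the named list genes were added after their values were seen. RefSeq (v10.1) matched 10 of the 15 genes by symbol and gave their positions. It gave gene spans but no transcript lengths, so L and S were compared only as shares of counts, with no test. Promoter and protein sequences were not used here. Alternatives were the median of ratios, DESeq2 1.42.0, other filters, edgeR without its robust option, summed homeologues, a pseudocount of 2 in place of 0.5 for L against S, each pool left out and, added after seeing the data, library totals without TMM. A few list genes are counted but not reported here by name.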

Additional observations from a re-analysis of the deposited data

Results flagged for a closer look

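Each group of 4 pools was checked for a pool far from the other 3, for the 15 genes of the family and the other genes named by the rule. Of 68 such checks 3 stood out, and chance alone gives about 1 in 20. epb41.S was at 192 CPM in CRISPant pool 4, while the other CRISPant pools lay between 168 and 169.7 CPM. sptbn4.S was at 47.3 CPM in control pool 1, while the other controls lay between 50.4 and 50.8 CPM, and it stayed above every CRISPant pool. tmod1.L was at 1.85 CPM in control pool 2, while the other controls lay between 2.35 and 2.38 CPM.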

How the results depend on the processing

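The 7 genes of the family that fell and the 1 that rose kept their calls under every alternative that tested them singly. With L and S summed, 4 of the 8 genes of the family fell and 1 rose, and 22 of the other pathway genes fell and 8 rose. Of all 17826 genes tested in that setting, 3823 fell and 3954 rose. The summed counts are lower by construction, since fewer genes were tested. As each pool was left out, between 7 and 9 genes of the family fell and 1 rose. Between 30 and 43 of the other pathway genes fell and between 13 and 17 rose. Of all genes, between 4603 and 5104 fell and between 4818 and 5396 rose, with 25363 to 25405 tested. The log2 fold change of sptan1.L, which did not pass in any setting, ranged from -0.0017 (without CRISPant pool 4) to 0.048 (without control pool 2) as each pool was left out, against 0.03 in the full set. L minus S in control pools stayed within 1 SD with a pseudocount of 2 and without each control pool. The ratio of CPM with no division by length was not run as an alternative, since no lengths were used. No paired analysis was possible because the groups share only the replicate number 4. With 4 pools per group and at least 755 counts per pool, the 95% intervals of the family were about 0.1 to 0.15 on either side on the log2 scale.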
